A study of Mus musculus with 6 samples.

Results

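The genes described here code for proteins of the lipid droplet in liver: *Cidea* and *Cidec* of the CIDE family, the perilipins *Plin2*, *Plin3*, *Plin4* and *Plin5*, the lipases *Pnpla2* and *Pnpla3*, and *G0s2* and *Hilpda*, whose products inhibit PNPLA2. The 10 genes are all measured among 35540 gene symbols, and each value is the sum of TPM (transcript abundance per unit of length, scaled to a total of 1000000 in every mouse) over the transcripts of that symbol. The set was selected on results of these same livers with the genotype difference known, so genotype differences of its genes are given as descriptions with no test. All 10 genes reached the mean of 0.1 TPM asked of the 14189 genes tested, but *Cidea* (mean 0.104 TPM) and *Pnpla3* (mean 0.105 TPM) did so only through the values of the female mice.

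RNA-seq was performed on the livers of 6 C57BL/6J-background mice homozygous for the floxed *Surf4* allele (*Surf4* fl/fl). Of these, 3 carried Alb-Cre (Alb-Cre+) and 3 littermate controls did not (Alb-Cre-). All mice carried a *Surf4* gene with exon 2 flanked by loxP sites, and Cre was driven by the albumin promoter, which is active in hepatocytes, so that other liver cells keep the intact gene. *Surf4* codes for a cargo receptor that carries secreted proteins out of the endoplasmic reticulum. The replicate numbered 2 was a female and those numbered 1 and 3 were males in both genotypes. The labels do not say that same-numbered mice were paired. The study's methods describe an overnight fast before tissues were taken, and the age of these mice is not given in the sources used here.

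*Surf4* had 59 TPM, 71.8 TPM and 54.3 TPM in Alb-Cre+ replicates 1, 2 and 3, against 92.5 TPM, 94.5 TPM and 92.5 TPM in the controls. The groups did not overlap, and the difference in log2(TPM + 0.1) was -0.60 (SE 0.13). The values are per transcript, so message lacking exon 2 was not separated. The Y-linked gene *Ddx3y* had at least 19.3 TPM in the males and 0 TPM in the females, as labelled. Hepatocyte markers (*Alb*, *Ttr*, *Apoa1*, *Trf*, *Cps1* and *Hnf4a*) summed to between 57821 and 92951 TPM per liver. Of the adipocyte markers, *Lep* was at 0 TPM in all 6 livers, *Cfd* and *Retn* stayed at or below 0.0789 TPM and *Adipoq* at or below 0.247 TPM. *Plin1* had 0.747 TPM in the control female and 0.0367 to 0.266 TPM in the other livers, and *Adrb3* had 1.63 to 2.93 TPM. Of the 4 brown adipocyte markers *Ucp1* and *Lhx8* were at 0 TPM in all 6. *Zic1* had 0.0099 to 0.0209 TPM and *Cidea* 0.0141 to 0.292 TPM. The 7 adipocyte markers summed to between 23.9 and 99.1 TPM per liver, most of it *Fabp4*, which is also known from endothelial cells and macrophages. TPM keeps no sequencing depth, so the counting error of low values is unknown, and fewer cells of a type cannot be told apart from less RNA per cell.

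Lipid droplets store triglyceride under a phospholipid monolayer, and perilipins coat that surface and limit the access of lipases. CIDE proteins gather where droplets touch and promote the transfer of lipid from the smaller to the larger droplet. PNPLA2, also called ATGL, opens lipolysis of the stored triglyceride. In liver, *Plin2* and *Plin5* are known targets of the fatty acid receptor PPARA and respond to fasting, whereas *Cidec*, first known from fat tissue, is known to be induced in fatty liver by PPARG and in fasting.

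*Cidec* is transcribed from alternative starts, and both are shown because the data assign nearly equal amounts to each. On chromosome 6, minus strand, of GRCm38, transcripts ENSMUST00000032416 and ENSMUST00000113089 begin in an upstream first exon, and ENSMUST00000113091 begins 996 bases downstream, within the first intron of the others. The coding sequences have 717 bases for the upstream transcripts and 747 bases for the downstream one, which adds 10 codons at the start of the protein. That longer form is known as FSP27β, the liver form that the transcription factor CREB3L3 (CREBH) is known to activate. The beginnings of the coding sequences are printed 5′ to 3′ with the 30 added bases in capitals, and the lower-case bases were the same in both.
Cidec ENSMUST00000113091: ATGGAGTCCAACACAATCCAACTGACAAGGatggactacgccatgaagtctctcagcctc
Cidec ENSMUST00000032416: atggactacgccatgaagtctctcagcctc

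The 250 bases before each *Cidec* start (RefSeq, GRCm38.p6, minus strand, 5′ to 3′) are chr6:113435761-113436010 for the upstream exon and chr6:113434765-113435014 for the downstream exon. The third sequence is the window before *Plin2*, the most abundant of the 10 genes, at chr4:86670060-86670309 on the minus strand, with the reverse complement of AGGTCA in capitals.
Cidec upstream: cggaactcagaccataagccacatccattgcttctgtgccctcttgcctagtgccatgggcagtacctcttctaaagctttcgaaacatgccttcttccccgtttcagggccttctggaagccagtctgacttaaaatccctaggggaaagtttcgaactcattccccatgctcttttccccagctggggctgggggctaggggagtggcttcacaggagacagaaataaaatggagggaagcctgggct
Cidec downstream: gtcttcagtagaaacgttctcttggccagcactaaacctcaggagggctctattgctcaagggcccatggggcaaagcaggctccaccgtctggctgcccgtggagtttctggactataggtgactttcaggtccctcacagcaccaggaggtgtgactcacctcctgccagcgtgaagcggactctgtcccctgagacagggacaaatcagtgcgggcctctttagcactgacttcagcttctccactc
Plin2: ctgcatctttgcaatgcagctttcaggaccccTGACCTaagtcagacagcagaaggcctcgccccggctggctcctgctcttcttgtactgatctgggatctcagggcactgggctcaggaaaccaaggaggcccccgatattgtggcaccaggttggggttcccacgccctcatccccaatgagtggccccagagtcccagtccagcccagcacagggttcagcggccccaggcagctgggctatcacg

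RefSeq windows were given for 9 of the 10 genes, 12 windows in all, and were searched on both strands for AGGTCA (the repeated unit of many nuclear receptor sites), ACGTG (the core of a hypoxia response element) and TGACGT (the core of a cAMP response element). AGGTCA was found in 2 of the 12 windows, those of *Plin2*, 218 bases before the start, and of the upstream start of *Plin5*, 170 bases before it, against 14% of 32851 mouse promoter windows. ACGTG was found in 1 window, 43 bases before the downstream start of *Hilpda*, against 16.6% of all windows. TGACGT was found in 1 window, that of *Pnpla3*, as overlapping matches on opposite strands 46 and 44 bases before the start, against 6.47% of all windows. Neither *Cidec* window held any of these letters, which says nothing of the factors themselves.

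Transcript levels of the 10 genes spanned from below 1 TPM to over 1000 TPM. *Plin2*, the main perilipin of hepatocytes, had a mean of 784 TPM over the 6 mice, more than 98.8% of the genes tested. *Plin5*, which couples droplets to mitochondria in oxidative tissues, followed with 136 TPM, then *Pnpla2* with 127 TPM, *G0s2* with 126 TPM, *Cidec* with 48.6 TPM, *Plin3* with 14.1 TPM, *Hilpda* with 11.4 TPM and *Plin4* with 2.97 TPM. Among neighbours in this order, only *Plin2* and *Plin5*, and *Plin4* and *Pnpla3*, had ranges over the 6 mice that did not overlap. *Pnpla2* was above *G0s2* in 3 of 6 mice, so the lipase and its inhibitor could not be ordered.

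**Figure D1:**
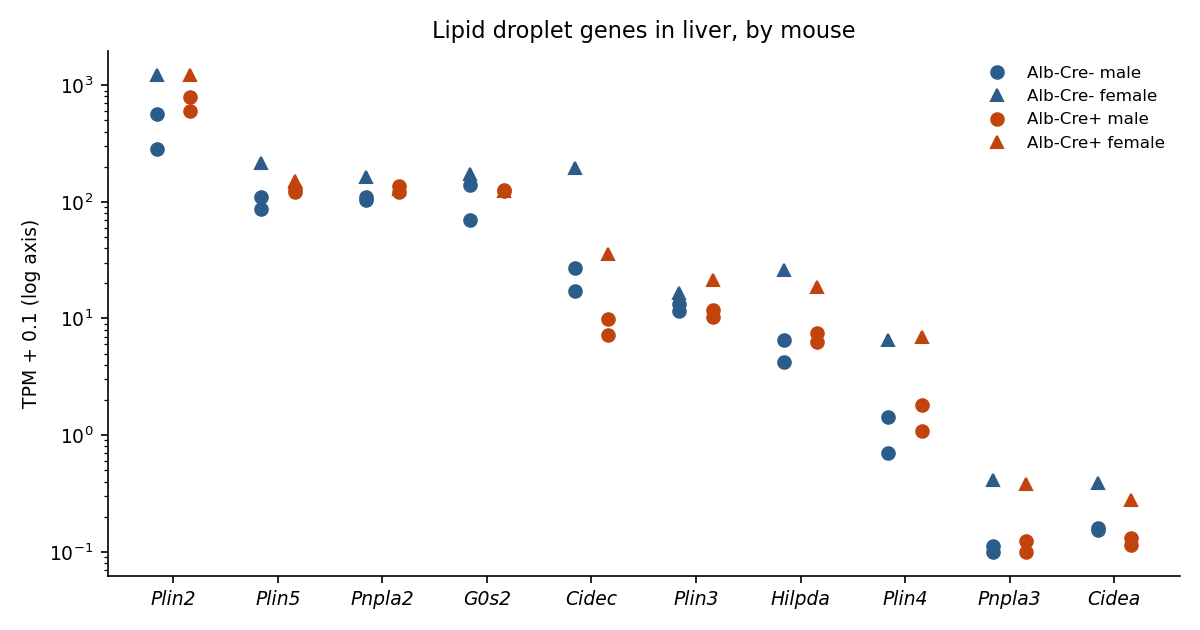
Levels of the 10 lipid droplet genes in each of 6 livers, as TPM + 0.1 on a log axis, with genes ordered by mean level; each point is 1 mouse, colour gives the genotype and shape the sex. *Cidec* has the widest spread of the genes above 10 TPM, from 7.09 TPM to 195 TPM. The female mice (triangles) lie above the males for all genes but *G0s2* and *Pnpla2*, as they do for 36.6% of all genes tested. *Cidea* and *Pnpla3* reached the mean of 0.1 TPM only through the females.

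*Cidec* had 26.8 TPM, 195 TPM and 17 TPM in control replicates 1, 2 and 3, and 7.09 TPM, 35.8 TPM and 9.85 TPM in Alb-Cre+ replicates 1, 2 and 3. The Alb-Cre+ liver was the lower one in all 3 same-numbered pairs, but the groups overlapped because the Alb-Cre+ female (replicate 2) lay above both control males. The mean was 17.6 TPM ± 15.8 (SD, n = 3) in Alb-Cre+ mice, and in controls it was 79.6 TPM with an SD larger than the mean itself. On the log2(TPM + 0.1) scale the difference was -1.71 (SE 0.98, or 0.31 with the pair as a block), and within pairs it was -1.90, -2.44 and -0.78. Leaving out the control female alone gave a log2 difference of -0.65, and leaving out the Alb-Cre+ female alone gave -2.40, in each case with a female on one side only.

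*Cidea*, the CIDE member of brown fat, lay near the detection limit, at 0.0553 TPM, 0.292 TPM and 0.0586 TPM in controls and at 0.0301 TPM, 0.177 TPM and 0.0141 TPM in Alb-Cre+ livers. It was also lower in the Alb-Cre+ liver of all 3 pairs, by -0.26, -0.50 and -0.48 in log2(TPM + 0.1), and the groups overlapped. The difference was -0.41 (SE 0.54) and came to 0.03 when only the control female was left out, which leaves the Alb-Cre+ female without a partner.

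*Plin2* had 562 TPM, 1224 TPM and 281 TPM in controls and 799 TPM, 1232 TPM and 605 TPM in Alb-Cre+ livers. The Alb-Cre+ value was the higher one in each pair, by 0.51, 0.01 and 1.10 in log2(TPM + 0.1), yet the 2 females were nearly equal and the groups overlapped. The overall difference was 0.54 (SE 0.52), and it came to 0.02 without control replicate 3, the lowest liver, and to 1.08 without the control female. *Plin2* thus had the opposite sign from *Cidec* in every pair.

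*Plin4*, a perilipin best known from fat tissue and muscle, had 0.607 TPM, 6.38 TPM and 1.34 TPM in controls and 0.976 TPM, 6.81 TPM and 1.71 TPM in Alb-Cre+ livers. Pair by pair the Alb-Cre+ value was higher by 0.61, 0.09 and 0.34 in log2(TPM + 0.1), a small shift beside the gap between the female livers and the others. The difference was 0.34 (SE 0.95), turning to -0.42 without the Alb-Cre+ female.

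The remaining perilipins did not move one way in all pairs. *Plin3*, a widely expressed perilipin that moves to droplets from the cytosol, had 11.6 TPM, 16.5 TPM and 13.2 TPM in controls and 11.7 TPM, 21.4 TPM and 10.2 TPM in Alb-Cre+ livers, with a log2 difference of 0.00 (SE 0.30). *Plin5* had 87.4 TPM, 216 TPM and 110 TPM in controls and 130 TPM, 152 TPM and 122 TPM in Alb-Cre+ livers, with a difference of 0.07 (SE 0.32). The Alb-Cre+ *Plin5* values lay between those of the controls.

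The lipolysis genes had nearly equal means in both genotypes, but their pairs went both ways. Within same-numbered pairs the difference in log2(TPM + 0.1) was 0.22, -0.34 and 0.34 for *Pnpla2*. For *G0s2* it was -0.16, -0.48 and 0.84. *Pnpla2* had 104 TPM, 162 TPM and 109 TPM in controls and 121 TPM, 128 TPM and 137 TPM in Alb-Cre+ livers, a log2 difference of 0.07 (SE 0.19). Its inhibitor *G0s2* had 138 TPM, 172 TPM and 70.2 TPM in controls and 123 TPM, 123 TPM and 126 TPM in Alb-Cre+ livers, a difference of 0.07 (SE 0.31). The *G0s2* mean was 127 TPM ± 51.9 (SD, n = 3) in controls. In Alb-Cre+ mice it was 124 TPM ± 1.72 (SD, n = 3), so the spread was wide in controls and narrow in Alb-Cre+ mice.

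*Hilpda*, the second PNPLA2 inhibitor and a hypoxia-inducible gene, had 6.45 TPM, 26.1 TPM and 4.13 TPM in controls and 7.39 TPM, 18.5 TPM and 6.15 TPM in Alb-Cre+ livers, a log2 difference of 0.09 (SE 0.71). *Pnpla3*, a droplet protein whose gene is known to be induced by feeding, had 0 TPM, 0.316 TPM and 0.0114 TPM in controls and 0.0232 TPM, 0.278 TPM and 0 TPM in Alb-Cre+ livers. Both genotypes were thus at or near 0 TPM of *Pnpla3* in males. In the females 88.4% and 83.5% of the *Pnpla3* TPM were assigned to ENSMUST00000230926, which is annotated as non-coding, and the gene overlaps other annotated genes. By this assignment, an estimate that was not tested, little of the value is from the coding transcript.

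**Figure D2:**
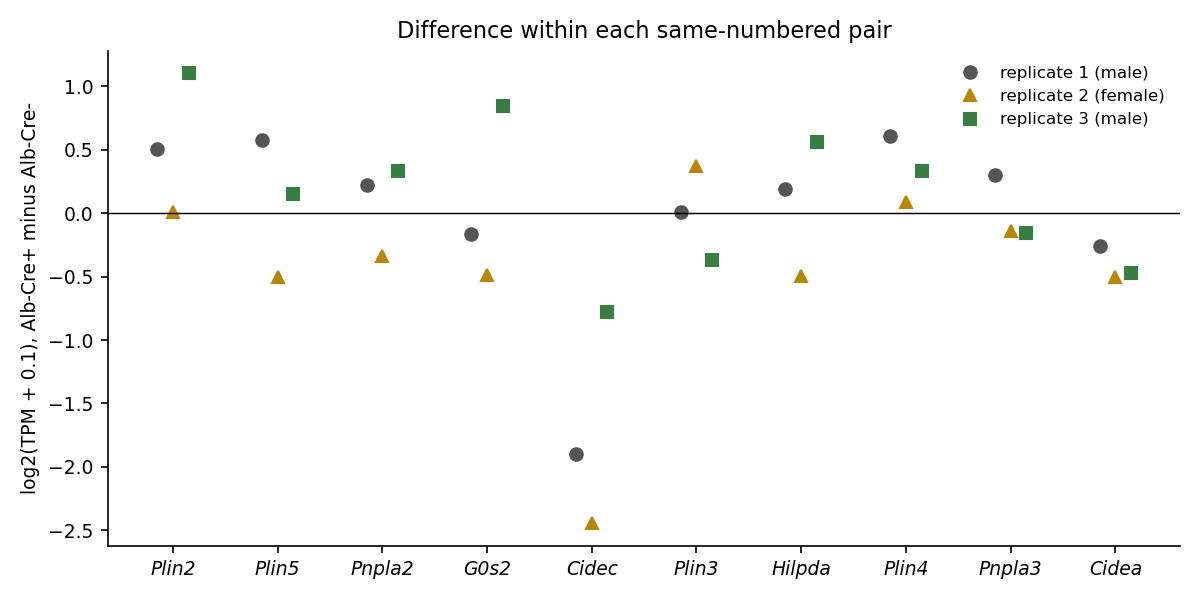
Difference in log2(TPM + 0.1) between the Alb-Cre+ and the Alb-Cre- liver of each same-numbered pair, for the 10 lipid droplet genes; each point is 1 pair and the line marks no difference. *Cidec* and *Cidea* lie below the line in all 3 pairs and *Plin2* and *Plin4* above it, with *Plin2* in the female pair at 0.01.

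Of the 10 genes, 2 (*Cidea* and *Cidec*) were lower in the Alb-Cre+ liver of all 3 pairs, against 12.4% of all genes tested, and 2 (*Plin2* and *Plin4*) were higher in all 3, against 11.5%. None of the 10 had groups that did not overlap, against 4.90% of all genes. At an adjusted p of 0.01 by limma no gene was called (0% of 14189, smallest adjusted p 0.456, and 0.058 with the pair as a block). At an unadjusted p of 0.05 limma called 250 genes (1.76%), and 666 genes (4.69%) with the pair as a block. Because the set was chosen with this contrast known, the counts of the 10 are descriptions. For the same reason the 10 are not read against the unadjusted p-values. The median log2 difference was 0.07 over the 10 genes and 0.00 over all genes tested.

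By transcript, *Cidec* was split evenly in every liver. The upstream first exon took 13.5 TPM, 94.2 TPM and 8.88 TPM in control replicates 1, 2 and 3, and 3.7 TPM, 17.4 TPM and 4.67 TPM in Alb-Cre+ replicates. The downstream transcript ENSMUST00000113091, with the 10 added codons, took 13 TPM, 98.6 TPM and 8.11 TPM in controls and 3.39 TPM, 18.2 TPM and 5.04 TPM in Alb-Cre+ livers. Both starts had the same order of mice.

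As a share of *Cidec* TPM, the downstream transcript held between 47.7% and 51.2% and the upstream exon between 47.4% and 52.3%, while the total varied 27.5-fold between mice. The mean downstream share was 50% ± 1.85 (SD, n = 3) in Alb-Cre+ mice and 48.9% ± 1.47 (SD, n = 3) in controls. The Alb-Cre+ deficit within pairs was alike for both starts, at -1.84, -2.43 and -0.91 in log2(TPM + 0.1) for the upstream exon and -1.90, -2.43 and -0.68 for the downstream one. The shortest transcript, ENSMUST00000133348, never held more than 1.41%.

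The division between the upstream transcripts was not stable: ENSMUST00000032416 ranged from 0% to 39.3% of *Cidec* TPM and ENSMUST00000113089 from 8.15% to 52.1%. These transcripts share their coding sequence and differ at the ends of their exons, so their sum is used here. The shares are estimates from reads that mostly fall in shared exons, and the effect of the transcript model on an even split was not tested.

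**Figure D3:**
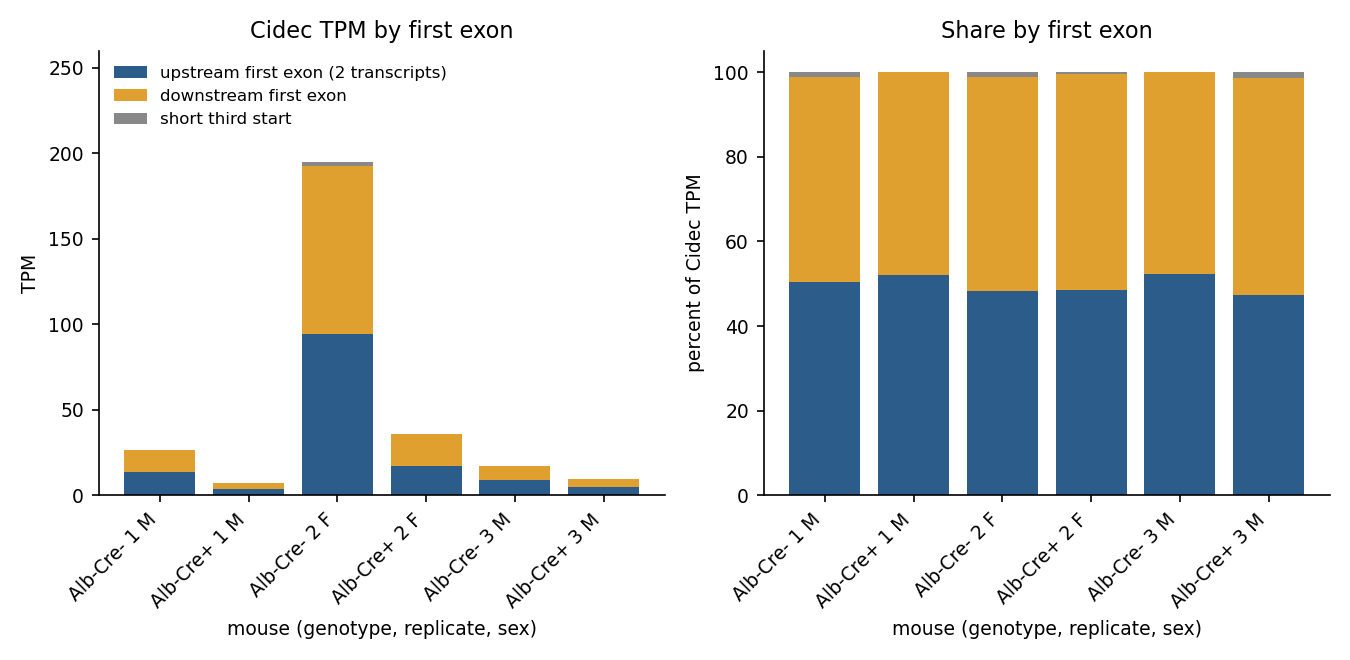
*Cidec* by first exon in each liver, as TPM (left) and as percent of *Cidec* TPM (right), with mice in same-numbered pairs and F or M for sex; bars are single mice. The total runs from 7.09 TPM to 195 TPM while the downstream first exon stays between 47.7% and 51.2%.

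Other genes of the set also had a leading transcript. ENSMUST00000000466 held 81.7% to 84.2% of *Plin2*, and ENSMUST00000113072, from the downstream of 2 first exons, held 66% to 77.1% of *Plin5*, with the top share in the control female. For *Pnpla2* the largest share, 56.6% to 59.6%, was assigned to ENSMUST00000026583, which is annotated as a target of nonsense-mediated decay, and 27.3% to 36.5% to the coding ENSMUST00000164016. This assignment is an estimate that was not tested. By it, the summed *Pnpla2* level is not a level of coding message. *Plin4* and *Plin5* are neighbours on chromosome 17, 1797 bases apart with no gene between, yet *Plin5* varied 2.47-fold and *Plin4* 11.2-fold between mice.

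Sex was not used to choose the genes, and 2 female livers were compared with 4 male livers by limma, with genotype as a covariate. *Cidea* and *Pnpla3* had male means below 0.1 TPM and entered only through the females, so they are described without a test and left out of the counts. The other 8 genes all had log2 differences above 0, as did 76.7% of all genes tested, whose median was 0.26. At an adjusted p of 0.01, passed by 73 genes (0.514%), none of the 8 was called. At the looser 0.05, 3 of the 8 were higher in females, against 6.32% of all genes tested. For 6 of the 8 both females lay above all males, against 36.6% of all genes. Both females were replicate 2, 1 per genotype, so sex cannot be told apart from whatever else the second pair shared.

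*Cidec* had the largest difference of the set, with 35.8 TPM and 195 TPM in the females and 7.09 to 26.8 TPM in the males. The log2 difference was 2.63 (SE 0.31, limma adjusted p = 0.0117), or 6.21-fold on the TPM + 0.1 scale. Within genotypes the female was above the mean of the 2 males by 2.08 in Alb-Cre+ mice and by 3.19 in controls. *Plin4* had 6.38 TPM and 6.81 TPM in females and 0.607 to 1.71 TPM in males, a difference of 2.50 (SE 0.37, limma adjusted p = 0.0185). *Hilpda* had 18.5 TPM and 26.1 TPM in females and 4.13 to 7.39 TPM in males, a difference of 1.88 (SE 0.27, limma adjusted p = 0.0176). *Pnpla3* had 0.278 TPM and 0.316 TPM in females and at most 0.0232 TPM in males, and *Cidea* had 0.177 TPM and 0.292 TPM in females and at most 0.0586 TPM in males.

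The other genes did not pass. *Plin2* differed by 1.22 (SE 0.32, limma adjusted p = 0.0683), with 1224 TPM and 1232 TPM in the females and no male above 799 TPM. *Plin3* (0.69, SE 0.17) and *Plin5* (0.71, SE 0.21) had adjusted p-values by limma of 0.0615 and 0.0915, and for each the females lay above the males. *G0s2* differed by 0.39 (95% CI -0.33 to 1.11) and *Pnpla2* by 0.30 (95% CI -0.08 to 0.68), and their females and males overlapped.

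**Figure D4:**
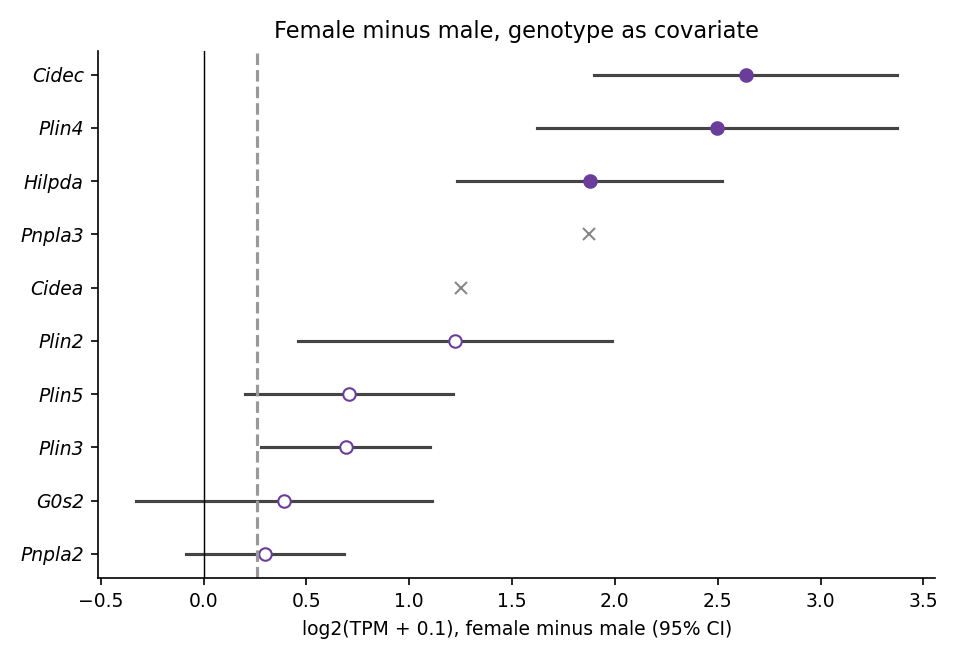
Female minus male difference in log2(TPM + 0.1) for the 10 lipid droplet genes, with 95% confidence intervals from limma (2 females, 4 males, genotype as covariate); filled points have an adjusted p under 0.05, crosses mark *Pnpla3* and *Cidea*, which were not tested, and the dashed line is the median of all genes tested. *Cidec* (2.63) and *Plin4* (2.50) are farthest from the dashed line at 0.26, and the intervals of *G0s2* and *Pnpla2* include 0.

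The calls rest on few mice. Without the Alb-Cre- female 18 genes in all and none of the 8 passed 0.05, and without the Alb-Cre+ female 19 genes and none of the 8. Without Alb-Cre+ replicate 1 (*Cidec* and *Hilpda*) or Alb-Cre+ replicate 3 (*Cidec* and *Plin4*) 2 of the 8 passed, and without either control male 3 did. With sex alone in the model *Cidec* lost its call, *Plin3* gained one, and 2 of the 8 passed 0.01. With no minimum level *Plin4* and *Hilpda* lost theirs and *Cidec* kept it. With scaling by median-of-ratios, which moved the median sex difference of all genes by -0.21, *Cidec*, *Plin4* and *Hilpda* passed, 5 of 8 had females above all males, and the calls over all genes were 66% higher in females in place of 88%.

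Markers of some other cell types moved with the same contrast. Kupffer cell markers summed to 424 and 461 TPM in the females and to between 116 and 181 TPM in the males. Of these markers 5 of 6 (*Vsig4*, *Cd5l*, *Timd4*, *Marco* and *Clec4f*) were higher in females at a limma adjusted p under 0.05, against 6.32% of all genes tested. Endothelial markers summed to between 163 and 192 TPM in females and between 73.9 and 123 TPM in males, with 2 of 6 called. Stellate cell markers summed to 307 to 322 TPM in females and 113 to 245 TPM in males, with none of 7 called. Hepatocyte markers summed to 85246 to 92951 TPM in females and 57821 to 83146 TPM in males. The adipocyte list, mostly *Fabp4*, summed to 72.8 to 99.1 TPM in females and 23.9 to 56.3 TPM in males, with none of 4 tested markers called. Cholangiocyte markers overlapped, at 36.2 to 39.2 TPM in females and 15 to 59.2 TPM in males, with none of 5 called. Skeletal muscle markers also overlapped, at 1.14 to 2.09 TPM in females and 1.52 to 2.54 TPM in males. The part of these cells in the sex difference was not tested. By genotype, Kupffer cell markers overlapped, at 116 to 461 TPM in Alb-Cre+ livers and 158 to 424 TPM in controls.

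Among 14 regulators known to act on droplet genes, 3 were higher in females at a limma adjusted p under 0.05, against 6.32% of all genes tested, and none lower. They were *Pparg*, *Hif1a* and *Epas1*, the last 2 coding for hypoxia-inducible factors. *Pparg* had 12.9 TPM and 15.8 TPM in females and 2.79 to 6.62 TPM in males (log2 difference 1.95, SE 0.33, limma adjusted p = 0.0241). Among PPARG and steatosis-associated genes 1 of 7 tested passed, the fatty acid transporter *Cd36* (1.74, limma adjusted p = 0.02), and among 16 other PPARA target genes 1 passed, *Fgf21* (2.27, limma adjusted p = 0.0241). None of 17 droplet biogenesis and coat genes and none of 14 lipolysis and lipophagy genes passed.

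By genotype, no gene of these 5 lists passed an adjusted p of 0.05 in limma, with or without the pair as a block. In the droplet biogenesis and coat list 8 genes had a higher and 9 a lower mean in Alb-Cre+ mice. Groups did not overlap for 2 of these 17, against 4.90% of all genes tested: *Cideb*, the CIDE member of normal liver, which aids VLDL lipidation, and *Aup1*, a droplet protein. *Cideb* had 300, 256 and 240 TPM in controls and 232, 222 and 188 TPM in Alb-Cre+ livers (log2 difference -0.31, SE 0.14), and *Aup1* differed by -0.08 (SE 0.10). *Cideb*, like *Cidec*, was therefore lower in the Alb-Cre+ liver of each pair, as were 12.4% of all genes tested.

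In the lipolysis and lipophagy list 7 genes were higher and 7 lower. Groups did not overlap for 2 of these 14, *Lipa* and *Pnpla7*, against 4.90% of all genes tested. *Lipa*, the lysosomal acid lipase, had 105, 118 and 81.2 TPM in controls and 60.7, 75.7 and 43.7 TPM in Alb-Cre+ livers (-0.77, SE 0.23). *Pnpla7*, a lysophospholipase, had 85.4, 85.8 and 57.2 TPM in controls and 54.5, 47.5 and 40 TPM in Alb-Cre+ livers (-0.67, SE 0.20). Both were therefore lower in the Alb-Cre+ liver of all 3 pairs, as were 12.4% of all genes tested.

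Of 16 other PPARA target genes 13 had a higher mean in Alb-Cre+ mice, against 49.6% of all genes tested. Groups did not overlap for 2 of these 16, against 4.90% of all genes tested. Among the 3 lower ones *Cpt1a*, which admits fatty acids to mitochondria, was 1 of these 2. It had 273, 270 and 187 TPM in controls and 158, 179 and 130 TPM in Alb-Cre+ livers (-0.63, SE 0.20). The list of 8 PPARG and steatosis-associated genes had 2 higher and 5 lower of 7 tested, and no groups that did not overlap. *Scd1*, a fatty acid desaturase, had 71.1, 51.6 and 248 TPM in controls and 16, 13.3 and 79.7 TPM in Alb-Cre+ livers, lower in the pairs by -2.15, -1.95 and -1.64 in log2(TPM + 0.1). Its difference was -1.91 (SE 0.81, or 0.13 with the pair as a block), and with the block its limma adjusted p was 0.058, a value it shared with *Fgf21* and that no gene was below.

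The regulators themselves overlapped between genotypes. *Ppara* differed by -0.45 (SE 0.29) and was lower in all 3 pairs, *Creb3l3* by 0.26 (SE 0.15) and *Mlxipl*, the gene of the carbohydrate-responsive factor ChREBP, by 0.48 (SE 0.22), both higher in all 3 pairs. *Pparg* differed by -0.43 (SE 0.76) and *Srebf1* by -0.03 (SE 0.40), with mixed pairs. *Creb3l3*, the known activator of the longer *Cidec* form, had the opposite sign from *Cidec* in each pair. Its transcript level does not measure the activity of the factor, and a part of it in the *Cidec* difference was not tested.

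The genes whose profile over the 6 mice was nearest to that of *Cidec* were *Fgf21*, *Tubb2a*, *Id1*, *Cgref1* and *Arid5a*, of 10634 others whose mean reached 1 TPM. Likeness was the root mean square difference of log2(TPM + 0.1) after each gene's mean was removed, and it was 0.54, 0.58, 0.70, 0.70 and 0.73 for these genes, against a median of 1.49. *Fgf21*, a fasting-induced hepatokine, had 22.7, 70.4 and 9.19 TPM in controls and 4.52, 16.9 and 2.57 TPM in Alb-Cre+ livers, lower in every pair as *Cidec* was. *Tubb2a*, a tubulin, had 39.3, 200 and 38.8 TPM in controls and 26.7, 57.3 and 20.6 TPM in Alb-Cre+ livers. All 5 peaked in the control female. The genes were picked for likeness to *Cidec*, so this peak and pair differences like those of *Cidec* follow in part from the choice.

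Within the set, *Hilpda* was the nearest to *Cidec* (0.99, rank 69), followed by *Plin4* (1.15, rank 369), while *Plin5*, *Plin2*, *Plin3*, *G0s2* and *Pnpla2* ranked between 1349 and 3652. This measure counts the size of the variation as well as its direction, and a gene with no variation at all would stand at 1.55. A low rank can therefore come from a smaller variation alone. *Cidea* and *Pnpla3*, with means below 1 TPM, were not ranked, and whether the CIDE and perilipin genes share a direction of change was not tested.

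**Figure D5:**
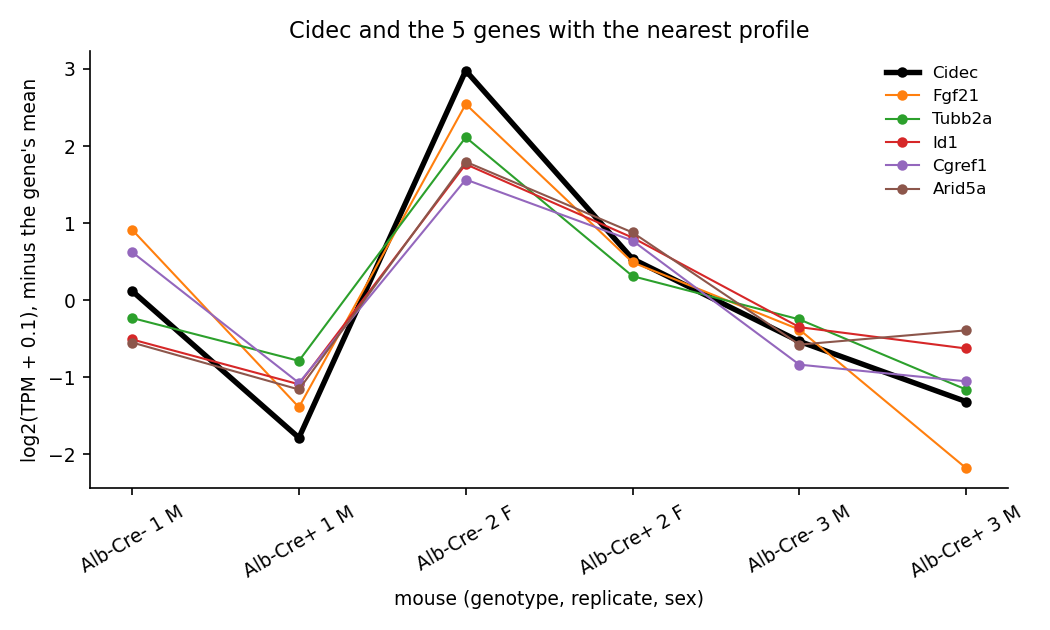
Profiles of *Cidec* and of the 5 genes nearest to it over the 6 livers, as log2(TPM + 0.1) minus the gene's own mean, with mice in same-numbered pairs and F or M for sex. Each line is 1 gene, and all 6 are highest in Alb-Cre- replicate 2, where *Cidec* had 195 TPM.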

How the data were processed

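In their methods the authors name STAR with GRCm38 and RSEM, whereas the transcript table is named for Salmon. The values deposited by the authors are TPM estimated per transcript, scaled by them to a total of 1000000 in each of 6 mice over 116748 transcripts. A second deposited table holds the authors' own DESeq2 comparison and was not used. The authors report genes that differ by genotype at a false discovery rate under 0.01 by that method. The lack of calls by limma on TPM is therefore not an absence of genotype differences. TPM was summed per symbol, leaving out 163 transcripts with no symbol (0.0515% to 0.0887% of TPM). The 14189 genes whose mean reached 0.1 TPM were tested with limma 3.58.1 in R 4.3.3, with a mean-variance trend, on log2(TPM + 0.1), so fold changes of low genes are understated. P-values were adjusted by Benjamini-Hochberg, with a threshold of 0.01 as in the study and a looser one of 0.05. Genotype was tested without covariates and sex with genotype as covariate. The script was tested on simulated data. Depth is unknown from TPM, and p-values measure the spread between these mice.

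The 10 genes and all lists were chosen with earlier results of these data known. Named genes were the 10, *Surf4*, list genes with non-overlapping groups or an unadjusted genotype p under 0.05 (up to 6 per list), 5 regulators and the 5 genes nearest to *Cidec*. One list gene that this rule names is not reported here. *Scd1* and genes called by sex were named after their values were seen. *Ldaf1* was not matched, and *Spart* and *Tf* were read as *Spg20* and *Trf*. Over all livers, skeletal muscle markers summed to 1.14 to 2.54 TPM and cholangiocyte markers to 15 to 59.2 TPM per liver. In GENCODE M21, 31 of the 32 transcripts were found.

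Same-numbered mice deviated together from their group means (r = 0.367, 0.588 and 0.37 over genes for replicates 1, 2 and 3). The numbers were therefore taken as pairs, with the block as an alternative. This pairing was read from the same data. Replicate 2 was the only female of each genotype, and males of different number also had a positive r (0.0914 and 0.171). Smaller SEs with the block thus rest on an assumed pairing. Other alternatives were another pseudocount, filter or scaling, no trend, other covariates or threshold, and each mouse left out.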

Additional observations from a re-analysis of the deposited data

Results flagged for a closer look

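For *Plin5*, *Pnpla2* and *Hilpda* both male pairs were higher in the Alb-Cre+ liver and the female pair was lower. The female pair differed from the mean of the male pairs by -0.87 in log2(TPM + 0.1) for *Plin5*, by -0.61 for *Pnpla2* and by -0.87 for *Hilpda*. There was a single female pair, so the difference was not tested. In the 4 male livers, no gene of the 10 had a mouse that stood apart by Dixon's criterion; groups of 3 were not examined.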

How the results depend on the processing

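The genotype comparison called no gene at an adjusted p of 0.01 under any alternative except leaving out single mice, which gave 0 to 1. Its 250 genes at an unadjusted p of 0.05 became 442 without a minimum level, 666 with the replicate block, 531 with sex as a covariate and 185 to 505 with single mice left out, the highest without Alb-Cre+ replicate 2. Non-overlapping genes numbered 695, and 1359 to 2886 with a mouse left out, since fewer mice overlap less. The 73 genes called by sex at 0.01 became 28 without a minimum level, 31 without the trend, 286 with sex alone, 1019 at 0.05, and 3 to 38 without single mice, 3 without either female. At an unadjusted p of 0.05 the 4072 genes became 2071 to 3706 without single mice, the lowest without Alb-Cre+ replicate 2.

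Among the 10 genes, leaving out a single mouse turned the sign of the genotype difference at least once for all but *Cidec* (-2.40 to -0.65) and *Plin2* (0.02 to 1.08), with *Hilpda* at -0.46 to 0.86, *Pnpla3* at -0.59 to 0.66, *G0s2* at -0.31 to 0.33 and *Plin3* at -0.32 to 0.21. For the 8 genes tested, 72 sex differences were counted, under another pseudocount, other scaling, single mice left out or sex alone. Of these, 60 kept their direction and side of 0.05, 9 lost the call, 1 gained it and 2 turned sign. Those 2 were *G0s2* (range -0.0212 to 0.804 over mice left out) and *Pnpla2* (-0.00838 to 0.606), both lowest without Alb-Cre- replicate 2. The filter and the trend were not part of this count, and without a minimum level *Plin4* and *Hilpda* also lost the call. The block changed no call at an adjusted p. Low genes such as *Cidea* and *Pnpla3* are limited by unknown depth.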
